A study of Mus musculus with 18 samples.

Results

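Lipid droplet proteins and CIDE genes were followed in the livers of LPS-treated mice and in cultured macrophages. The set holds 10 genes, namely the CIDE genes Cidea, Cideb and Cidec, the perilipins Plin2, Plin4 and Plin5, the lipolysis genes Pnpla2, Pnpla3 and G0s2, and the fatty acid receptor Cd36. They were taken by gene symbol, and all 10 were found among the 21441 rows of each of 2 expression tables. The set was chosen by function and selected on a measured value, since Cidec was among the largest rises of the liver with LPS, so the liver values of the LPS and control groups are given as a description. Counts of genes past the limits of the fit are printed for that contrast without P-values, and nothing is read from them for the members.

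RNA-seq was performed on 18 libraries in 6 groups of 3, from the liver of wild type male C57BL/6 mice and from RAW264.7 cells, a mouse macrophage-like line. Control mice received the vehicle (10% DMSO) by gavage and an injection of saline. LPS mice received 10 mg/kg lipopolysaccharide, a bacterial cell wall component that triggers inflammation, by intraperitoneal injection. LPS+MIC-1 mice were gavaged with 80 mg/kg moringa isothiocyanate-1 (MIC-1), a plant isothiocyanate, in 10% DMSO for 3 days before the same injection. The paper states a gavage with MIC-1 or vehicle before the injections of LPS or saline. Its list of groups names no gavage for the LPS mice. Livers were collected 16 h after the injection. For the cell cultures, the series text gives MIC-1 at 10 µM, while their labels repeat the doses of the mice, and the LPS concentration is not given in the sources used here. The liver libraries came from 9 mice, 3 of the 6 in each group. For the macrophages nothing says that the libraries are separate cultures, so P-values there measure the spread between these libraries, which may be technical. The macrophage table holds 1 more LPS library than the published description of the macrophage analysis counts, and the sources used here do not say which one that is. The columns of the tables give the treatment without a replicate number, and libraries 1 to 3 of a group are named here by column order only.

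Lipid droplets are the organelles in which cells store triglycerides and steryl esters under a single layer of phospholipid. Perilipins coat this surface and govern access of the lipases, whereas CIDE proteins sit at contacts between droplets and promote lipid transfer and droplet fusion. Adipose triglyceride lipase, the product of Pnpla2, starts triglyceride breakdown, and G0S2 is its inhibitor. In liver, Plin2 is the most widely used droplet coat, Cidec is known for its rise with hepatic steatosis, and Cideb is the constitutive hepatocyte CIDE gene with a known part in the lipidation of very low-density lipoprotein.

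Promoter sequence is shown for Cidec, Plin2 and Plin5, which were higher in treated livers, so that they can be read beside Pnpla3, which was lower. Other members whose libraries also did not overlap the controls, such as Plin4, are not shown. Each stretch covers the 250 bases before an annotated RefSeq transcription start (assembly GRCm38.p6), was placed uniquely on mm9 by its letters, and reads 5′ to 3′ on the strand of the gene. Capitals mark any match on either strand to the nuclear receptor half-site AGGTCA, the cAMP response element TGACGTCA or the AP-1 site TGANTCA. Cidec has 2 annotated starts, upstream windows of which lie at chr6:113385755-113386004 and chr6:113384759-113385008 on the minus strand. The windows of Plin2 at chr4:86315964-86316213 and of Plin5 at chr17:56256972-56257221 are also on the minus strand, and that of Pnpla3 at chr15:83997996-83998245 is on the plus strand.
Cidec start 1: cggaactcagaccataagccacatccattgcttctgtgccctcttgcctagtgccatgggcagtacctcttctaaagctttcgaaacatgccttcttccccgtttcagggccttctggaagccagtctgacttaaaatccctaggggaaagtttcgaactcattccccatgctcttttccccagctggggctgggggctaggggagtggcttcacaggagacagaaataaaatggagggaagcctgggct
Cidec start 2: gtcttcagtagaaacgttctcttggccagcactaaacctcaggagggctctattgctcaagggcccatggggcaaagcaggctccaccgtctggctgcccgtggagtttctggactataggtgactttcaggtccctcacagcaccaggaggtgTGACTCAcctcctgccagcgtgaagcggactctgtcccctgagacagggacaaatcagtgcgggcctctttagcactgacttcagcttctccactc
Plin2: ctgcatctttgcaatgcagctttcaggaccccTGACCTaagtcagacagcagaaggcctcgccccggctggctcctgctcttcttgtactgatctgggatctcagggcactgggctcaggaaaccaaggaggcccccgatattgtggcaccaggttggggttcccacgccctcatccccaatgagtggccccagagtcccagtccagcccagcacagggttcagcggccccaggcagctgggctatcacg
Plin5 start 1: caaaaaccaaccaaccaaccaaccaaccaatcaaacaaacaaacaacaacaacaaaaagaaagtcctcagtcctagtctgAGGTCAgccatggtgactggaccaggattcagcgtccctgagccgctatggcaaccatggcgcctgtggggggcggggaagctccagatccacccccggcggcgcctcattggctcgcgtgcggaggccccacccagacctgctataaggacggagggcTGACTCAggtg
Pnpla3: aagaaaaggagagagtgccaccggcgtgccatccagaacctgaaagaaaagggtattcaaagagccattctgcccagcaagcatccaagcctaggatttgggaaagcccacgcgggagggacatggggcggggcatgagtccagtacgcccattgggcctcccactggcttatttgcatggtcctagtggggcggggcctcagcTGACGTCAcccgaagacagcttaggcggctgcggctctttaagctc

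The upstream Cidec window held no match to any of the motifs searched, and the downstream window held 1 AP-1 match at position -96 from the start. Plin2 held a half-site at position -218 and a match to the NF-kB consensus at position -123. Plin5 held a half-site at -170, an NF-kB consensus match at -95 and an AP-1 match at -11, while a second annotated Plin5 start, not shown, held none. Pnpla3 held the cAMP response element at -46. Among 32851 mouse promoter windows of the same length, AGGTCA was present in 14%, TGANTCA in 6.75%, TGACGTCA in 1.55% and the NF-kB consensus in 7.25%. Of the members not shown, Cd36 held a half-site at -228, Plin4 and Pnpla2 held NF-kB consensus matches at -243 and -163, Cideb held the antioxidant response element TGACNNNGC at -17 (present in 10.2% of windows, and able to overlap an AP-1 match), and G0s2 held none. The direct repeat AGGTCANAGGTCA, which contains the half-site and was present in 0.0335% of windows, was found in 0 of the member windows. The windows are short, and a match describes letters only.

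Expression was given as FPKM, fragments per kilobase of transcript, scaled to the mapped fragments of the library. The FPKM worth of 1 read on a 1 kb transcript, estimated from the steps between low values, was 0.0585 to 0.172 in liver and 0.0408 to 0.0709 in macrophages. Library 1 of the liver controls, library 2 of liver LPS and library 2 of liver LPS+MIC-1 stood apart from the others of their group. Liver LPS library 2 and LPS+MIC-1 library 2 were each nearest to the other, at a median absolute log2 distance of 0.313, against 0.529 to 0.552 and 0.35 to 0.351 from the libraries of their own groups. In macrophages, library 2 of each treatment stood apart, and library 2 of LPS lay nearest to control library 2, at a median absolute log2 distance of 0.0732 against 0.695 to 0.696 from the other LPS libraries. Main member results are therefore also given without library 2 of liver LPS, of liver LPS+MIC-1 or of macrophage LPS. For the other libraries that stood apart, changed calls of named genes and the range of counts are given. Hepatocyte markers summed to 40570 to 79450 FPKM in control livers, 35080 to 45450 with LPS and 34790 to 44760 with LPS+MIC-1, and macrophage markers in RAW264.7 cells summed to 10910 to 13370 FPKM.

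Cidec showed the widest separation of any member in the liver. It was listed at 0, 0.226 and 0.221 FPKM in the control libraries, at 71.65, 20.2 and 77.9 FPKM with LPS, and at 4.46, 66.65 and 4.15 FPKM with LPS+MIC-1. All 6 libraries from LPS-injected mice lay above all 3 controls, while the LPS and LPS+MIC-1 groups overlapped because LPS library 2 was the low one of its group and LPS+MIC-1 library 2 the high one. The control values correspond to 0 to 1.99 reads, so no ratio to control is given. A value listed at 0 may be a failed estimate, which was not tested. Cebpa, a transcription factor gene of hepatocytes, was listed at 0 in 7 of 9 liver libraries. Mlxipl was listed at 66.9, 0 and 0 FPKM in control livers. Both genes were picked after their values were seen. On the log2(FPKM + 0.5) scale, the Log2FC of LPS over control was 6.26 ± 0.98 (SE), a value that depends on the pseudocount and was 7.79 with 0.1 and 5.44 with 1. It ranked as number 3 of 10147 liver genes with a mean above 1 FPKM, between S100a9 at 6.27 and Saa3 at 6.23, and these are the values on which the set was chosen. The gene lies at chr6:113374628-113385754 in mm9.

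The other CIDE genes differed from Cidec in level and direction. Cideb was the most highly expressed CIDE gene of control liver, at 299.5, 289 and 267 FPKM (285 ± 16.4, SD, n = 3). It stood at 125, 195.5 and 148 FPKM with LPS (156 ± 36.1) and at 169, 128 and 170.0 FPKM with LPS+MIC-1 (156 ± 23.9). Every library from LPS-injected mice was below every control, and the means of the injected groups were equal to 3 digits. The Log2FC of LPS over control was -0.89 ± 0.22 (SE). Cidea, better known from brown fat, was near its detection limit, at 0 to 0.173 FPKM in controls, 0 to 1.01 FPKM with LPS and 0 to 0.164 FPKM with LPS+MIC-1. Its mean over the 9 libraries was 0.225 FPKM, and it did not enter the fits.

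**Figure D1:**
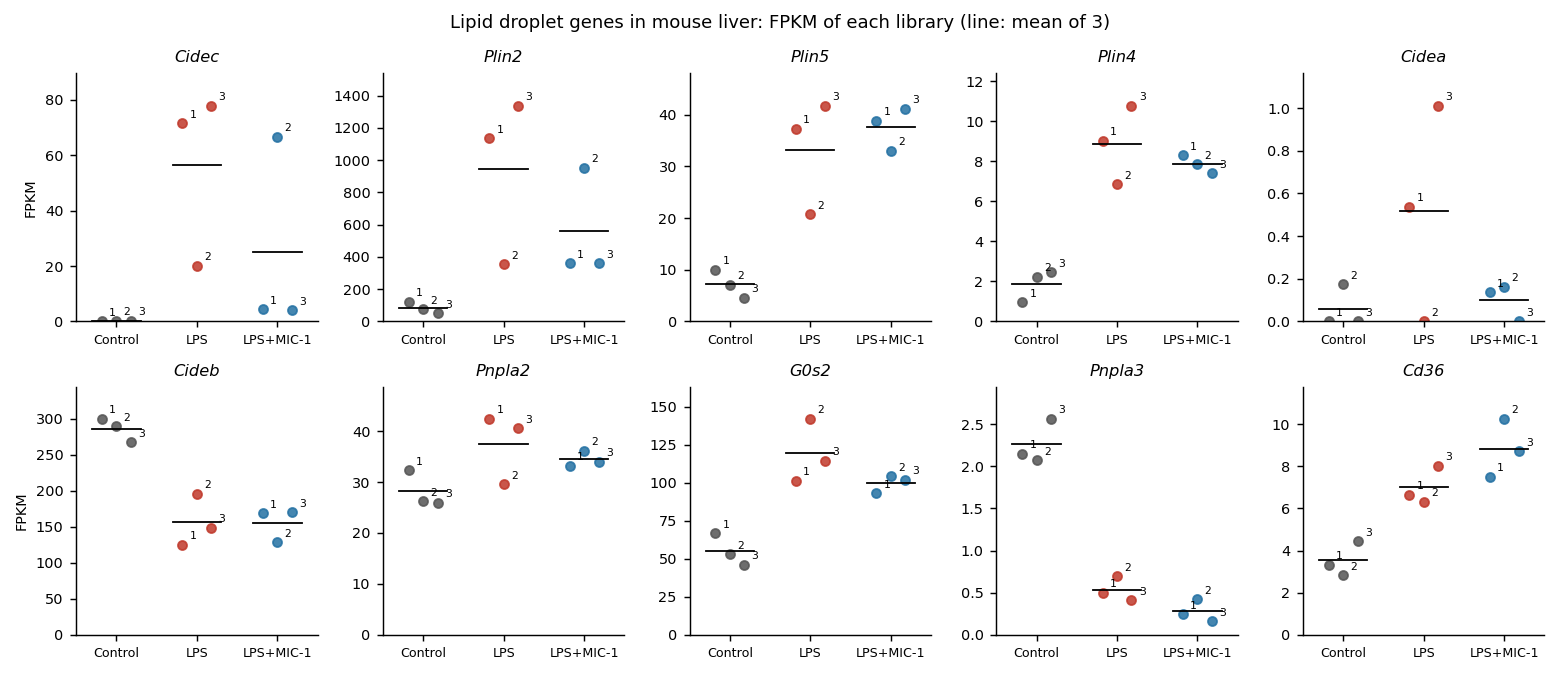
FPKM of the 10 members in the 9 liver libraries, 1 panel per gene with its own axis from 0; points are libraries and lines are means of 3. Cidec is near 0 in all controls and reaches 77.9 FPKM with LPS, Cideb and Pnpla3 are lower in every injected library than in any control, and for Cidec and Plin2 library 2 of LPS is the low point and library 2 of LPS+MIC-1 the high point of its group.

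Plin2, the general droplet coat protein, was the most abundant perilipin. It measured 121.5, 77.1 and 52.7 FPKM in controls (83.8 ± 34.9), 1136, 355 and 1338 FPKM with LPS (943 ± 519), and 362, 952 and 361 FPKM with LPS+MIC-1 (558 ± 341). All injected libraries lay above the controls, and the injected groups overlapped with the same libraries out of place as for Cidec. With LPS its Log2FC over control was 3.36 ± 0.59 (SE), rank 103 of the 10147 genes.

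Plin5, which links droplets to mitochondria in oxidative tissue, measured 10.04, 7.08 and 4.62 FPKM in controls (7.24 ± 2.72), 37.3, 20.7 and 41.8 FPKM with LPS (33.3 ± 11.1), and 38.8, 33.1 and 41.2 FPKM with LPS+MIC-1 (37.7 ± 4.19). Plin4, a coat protein of nascent droplets, measured 0.957, 2.23 and 2.46 FPKM in controls (1.88 ± 0.808), 9.04, 6.85 and 10.8 FPKM with LPS (8.89 ± 1.97), and 8.32, 7.88 and 7.40 FPKM with LPS+MIC-1 (7.86 ± 0.460). For both genes every injected library was above every control, and the injected groups overlapped. The Log2FC of LPS over control was 2.13 ± 0.33 (SE) for Plin5 and 2.02 ± 0.29 (SE) for Plin4.

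Among the lipolysis genes, the lipase itself moved least. Pnpla2 measured 32.3, 26.3 and 25.9 FPKM in controls, 42.4, 29.6 and 40.5 FPKM with LPS, and 33.2, 36.2 and 34.0 FPKM with LPS+MIC-1. Control and LPS libraries overlapped, and the Log2FC was 0.40 ± 0.19 (SE). Its inhibitor G0s2 measured 67.0, 53.0 and 46.2 FPKM in controls (55.4 ± 10.6), 101.5, 142 and 114.5 FPKM with LPS (119 ± 20.7), and 93.1, 104 and 102 FPKM with LPS+MIC-1 (99.9 ± 6.00). Every injected library was above every control, and LPS library 2, low for Cidec and Plin2, was the highest of its group here. The Log2FC of LPS over control was 1.10 ± 0.20 (SE), and fell to 0.98 without control library 3 and 0.97 without LPS library 2, just under the limit of 1 used below.

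Pnpla3, a droplet-bound hydrolase known from inherited liver steatosis, was, like Cideb, lower in every injected library than in any control. It measured 2.15, 2.07 and 2.56 FPKM in controls (2.26 ± 0.264), 0.502, 0.694 and 0.409 FPKM with LPS (0.535 ± 0.145), and 0.246, 0.423 and 0.163 FPKM with LPS+MIC-1 (0.278 ± 0.133). Its Log2FC with LPS was -1.42 ± 0.27 (SE). With a mean of 1.025 FPKM over all libraries it lay just above the limit of 1 FPKM for the fits, and it dropped out whenever a control library was left out. Cd36, the receptor that takes up long-chain fatty acids, measured 3.32, 2.83 and 4.45 FPKM in controls (3.53 ± 0.833), 6.65, 6.33 and 8.03 FPKM with LPS (7.002 ± 0.904), and 7.51, 10.25 and 8.72 FPKM with LPS+MIC-1 (8.83 ± 1.37). Its controls lay below all injected libraries, with a Log2FC of 0.91 ± 0.21 (SE) for LPS.

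In liver, a limma fit over all 9 libraries and all 10147 genes called a gene when its adjusted P-value was below 0.05 and its Log2FC beyond 1 in either direction. For LPS over control 6 of the 9 members in the fit lay past these limits, 5 higher (Cidec, Plin2, Plin4, Plin5, G0s2) and 1 lower (Pnpla3), where 24.6% of all genes were called. Higher calls made up 13.4% and lower calls 11.2% of genes. This contrast chose the set, so nothing is read from the count, which was 0 when the closest pair of libraries of each group was averaged (1.49% of genes called). The libraries of the groups did not overlap for 6 members on the higher and 2 on the lower side, as for 24.2% and 20.8% of all genes. Near the fold limit the side depended on single libraries, since Cideb lay past it at -1.06 without LPS library 2 and Cd36 at 1.07 without control library 3. The median Log2FC was 1.10 over the 9 members and 0.15 over all genes. In bulk liver, fewer cells of a type and less RNA per cell cannot be told apart. Macrophage markers summed to 28.7 to 43.2 FPKM in controls, 127 to 625 with LPS and 127 to 436 with LPS+MIC-1 (5 of 6 listed genes in the table). Cd14 rose most, with means of 7.34, 402 and 175 FPKM, while the means of Csf1r were 5.88, 6.67 and 6.31 FPKM. Itgam had means of 1.24, 6.13 and 4.49 FPKM and Lyz2 of 19.6, 37.0 and 44.8 FPKM. Adgre1, listed under its older symbol Emr1, had means of 0.417, 1.36 and 0 FPKM. Neutrophil markers summed to 36.2 to 52.4, 317 to 394 and 180 to 436 FPKM (6 of 7 listed). S100a8 had means of 5.87, 261 and 207 FPKM, and S100a9, Camp, Elane and Retnlg also had higher means in both injected groups than in controls. Cxcr2 alone of this list went the other way, with means of 35.1, 7.05 and 5.23 FPKM. Kupffer cell markers summed to 29.2 to 51 FPKM, 36.9 to 53.9 and 50.9 to 96.1, with Clec4f at means of 24.3, 5.16 and 4.53 FPKM and Marco at 3.83, 31.6 and 62.7 FPKM. Adipocyte markers summed to 0 in controls and to at most 0.101 FPKM with LPS and 0.187 FPKM with LPS+MIC-1, with 5 and 4 of the 6 listed genes at 0 in all 3 libraries of those groups. The part of these markers in the member values was not tested.

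The comparison of LPS+MIC-1 with LPS asks whether the isothiocyanate changes the response of the injected liver. The 6 LPS-injected libraries take part, 3 of which are shared with the contrast above. Of the 9 members 0 were called by limma, where 0.0% of all genes were called. At an unadjusted P-value below 0.05 with the same fold limit, 0 members and 100 genes (0.986%) passed. Cidec had a Log2FC of -2.08 ± 0.98 (SE), with a 95% interval of -4.32 to 0.16 and an adjusted P-value of 0.997. Plin2 had a Log2FC of -0.70 (interval -2.05 to 0.64) and an adjusted P-value of 0.997. The intervals of the other members were narrower, -0.52 to 0.98 for Plin5, -0.81 to 0.51 for Plin4, -0.70 to 0.22 for G0s2, -0.16 to 0.78 for Cd36 and -0.48 to 0.50 for Cideb. The groups overlapped for all 9 members.

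The Cidec value of this comparison moved either way with the libraries used. It was -1.80 without LPS library 1 and -1.74 without LPS library 3. It was -1.47 without LPS+MIC-1 library 1 and -1.42 without LPS+MIC-1 library 3. With the closest pairs averaged it was -1.14, with an interval of -4.11 to 1.84. Without LPS library 2 the Log2FC of Cidec was -2.70 (adjusted P-value 0.301 by limma), and without LPS+MIC-1 library 2 it was -3.35 (adjusted P-value 0.19). Without both, a choice made after the values were seen, it was -3.97 ± 0.23 (SE), with an interval of -4.53 to -3.41 and an adjusted P-value of 0.0050. Cidec was then the 1 member called of 9, where 2.99% of 10192 genes were called, and Plin2 was not called at a Log2FC of -1.77 ± 0.38 (SE) and an adjusted P-value of 0.0672. Each group then holds 2 libraries that lay close together, so the spread behind these P-values is small.

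LPS+MIC-1 over control shares its control libraries with the LPS contrast. Of the 9 members, 6 were called, 5 higher and 1 lower, where 25.2% of all genes were called (13.8% higher and 11.5% lower). With the closest pairs averaged 0 members and 1.59% of genes were called. Cidec rose with a Log2FC of 4.18 ± 0.98 (adjusted P-value 0.0133 by limma), Plin2 with 2.65 ± 0.59 (0.011), Plin5 with 2.36 ± 0.33 (0.00237), Plin4 with 1.88 ± 0.29 (0.00321) and Cd36 with 1.22 ± 0.21 (0.0045), all ± SE. Pnpla3 fell, with a Log2FC of -1.84 ± 0.27 (adjusted P-value 0.00268). Pnpla3 passed the filter of 1 FPKM only through the controls and Cidec only through the injected groups, so the count of members is not read as support. In a fit without the filter both were still called, with adjusted P-values by limma of 0.00208 for Pnpla3 and 0.02165 for Cidec. The set was chosen on the rise of Cidec over these same controls, which a fit without the filter does not undo. The P-values of Cidec in this comparison are therefore not read as support. G0s2 and Cideb passed the P-value but not the fold limit, at 0.86 (adjusted P-value 0.0131 by limma) and -0.88 (0.0152), and Pnpla2 passed neither at 0.29 (0.243). Without control library 1 G0s2 was called at 1.00. Without LPS+MIC-1 library 2 the Log2FC of Cidec was 2.91. For all 9 members every LPS+MIC-1 library lay on 1 side of every control, which held for 30.5% of all genes on the higher and 24.1% on the lower side.

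**Figure D2:**
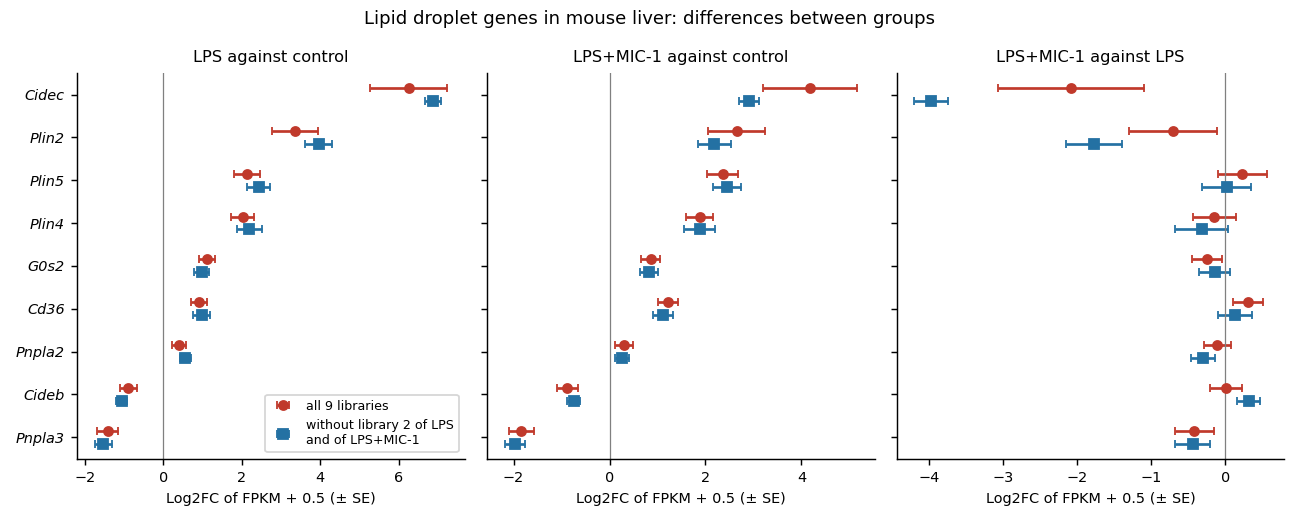
Log2FC ± SE of the 9 fitted members in 3 liver comparisons, on the log2(FPKM + 0.5) scale; red points use all 9 libraries and blue points leave out library 2 of LPS and of LPS+MIC-1. The Cidec value for LPS+MIC-1 over LPS moves from -2.08 with a wide error to -3.97 with a narrow one. In the same comparison Plin2 moves from -0.70 to -1.77 and Cideb from 0.01 to 0.32, while Plin4, Plin5 and Cd36 move less.

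The scale of the values mattered for a few members. Rescaling every library to the same FPKM sum moved the median of all liver genes from 0.15 to -0.18 for LPS over control, from -0.01 to -0.26 for LPS+MIC-1 over LPS and from 0.15 to -0.43 for LPS+MIC-1 over control. Under that rescaling Cideb was called lower in both comparisons with control, at Log2FC -1.26 and -1.54, G0s2 (0.74 for LPS) and Cd36 (0.62 for LPS+MIC-1) were no longer called, and the sign turned for Pnpla2 in LPS+MIC-1 over control (0.29 to -0.35) and for Plin5 (0.23 to -0.05) and Cideb (0.01 to -0.28) in LPS+MIC-1 over LPS. The split of all genes for LPS over control moved from 1356 higher and 1137 lower to 797 and 1851, and for LPS+MIC-1 over control from 1396 and 1164 to 535 and 2584. Each scaling run divides a library by a single factor, which moves nearly all genes alike. The place of a member relative to the median of all genes could therefore hardly change, and nothing is read from it.

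Other genes of droplet metabolism were followed in 5 lists of 71 genes, 61 of which entered the liver fit. With LPS 9 of them were called higher and 12 lower, where 13.4% and 11.2% of all genes were, and with the closest pairs of libraries averaged 1 and 0 were. In the comparison of LPS+MIC-1 with LPS, limma called 0 (1 at an unadjusted P-value), and LPS+MIC-1 over control gave 8 higher and 12 lower, where 13.8% and 11.5% of all genes were called, and 1 and 1 with the closest pairs averaged. In fatty acid uptake and activation, 6 of 14 genes were called higher and 4 lower with LPS. Fabp4, a fatty acid-binding protein of fat cells and macrophages, measured 5.91, 26.1 and 16.4 FPKM in controls, 157, 171 and 220.2 FPKM with LPS, and 155, 193.5 and 156 FPKM with LPS+MIC-1. Fabp1, its abundant liver counterpart, went the other way, from 10530, 6111 and 6652 FPKM in controls to 938, 3521 and 1124 FPKM with LPS and 1968, 1275 and 2022 FPKM with LPS+MIC-1. The Log2FC of LPS over control was 3.67 ± 0.45 (SE) for Fabp4 and -2.28 ± 0.50 (SE) for Fabp1, with no overlap between injected and control libraries for either. The call of Fabp1 was lost without LPS library 3 (-2.05). The transport gene Slc27a4 (1.74) was called higher, whereas the acyl-CoA synthetases Acsl1 (-1.70) and Acsl3 (-1.24) were called lower.

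With all 9 libraries the calls among lipolysis genes were all in the lower direction. They were 5 of 10 with LPS and 5 of 10 with LPS+MIC-1 over control, where 11.2% and 11.5% of all genes were called lower. With the closest pairs averaged these counts were 0 and 1. Without LPS library 2 they were 2 higher and 5 lower with LPS, where 1935 and 1587 of 10151 genes were called. With LPS+MIC-1 over control they were then 1 higher and 6 lower, where 1552 and 1264 genes were called. The carboxylesterase Ces1f measured 172, 109 and 117 FPKM in controls, 33.7, 12.0 and 26.5 FPKM with LPS, and 7.48, 7.99 and 6.70 FPKM with LPS+MIC-1. All LPS+MIC-1 libraries lay below all LPS libraries, but the difference was not called with all 9 libraries, and was called without LPS library 2 (-1.95). Its Log2FC over control was -2.53 ± 0.36 (SE) with LPS and -4.05 ± 0.36 (SE) with LPS+MIC-1. The monoglyceride lipase Mgll (-1.26), the lipoprotein lipase Lpl (-1.53), Aadac (-1.22) and Ces3a (-1.18) were the other lower calls with LPS. Abhd5, the coactivator of the lipase encoded by Pnpla2, was not called (Log2FC 1.18 with LPS) and measured 2.75, 1.53 and 2.01 FPKM in controls, 9.89, 1.01 and 11.7 FPKM with LPS, and 7.50, 6.72 and 6.50 FPKM with LPS+MIC-1. Abhd5 was called without LPS library 2 (2.15), its lowest library, and the other injected libraries lay above all controls. The hormone-sensitive lipase gene Lipe had a Log2FC of -0.60 with LPS, under the fold limit.

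Among other droplet proteins 1 of 14 was called higher and 2 lower in both comparisons with control (0 with the closest pairs averaged), beside 13.4% and 11.2% of all genes for the LPS group and 13.8% and 11.5% for the LPS+MIC-1 group. The higher gene, listed under its older symbol 2310016C08Rik for Hilpda, encodes a hypoxia-inducible droplet protein that inhibits lipolysis. It measured 1.68, 1.90 and 1.86 FPKM in controls, 16.4, 3.66 and 19.0 FPKM with LPS, and 6.03, 8.60 and 6.03 FPKM with LPS+MIC-1. As for Cidec, LPS library 2 was the low one and LPS+MIC-1 library 2 the high one of its group. Its call with LPS was lost without LPS library 1 (1.96) or 3 (1.86), and its call with LPS+MIC-1 when any control or LPS+MIC-1 library was left out (Log2FC of at most 1.74). The lower genes were Fitm1 (-2.48 with LPS), a factor for droplet budding, and Ubxn4 (-1.54). Plin3 had a Log2FC of -0.23 with LPS and was not called, and Plin1, the adipocyte perilipin, was listed at 0 in 7 of 9 liver libraries and at most 0.101 FPKM in the others.

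Triglyceride and steryl ester synthesis had 1 of 13 genes called in each direction. They were Agpat9, the older symbol of the acyltransferase gene Gpat3, with a Log2FC of 2.24 ± 0.47 (SE) for LPS, and the lipin gene Lpin2 with -1.33 ± 0.27 (SE). Of 10 transcription regulators 1 was called with LPS, Cebpb at 1.19 ± 0.30 (SE), and 0 with LPS+MIC-1 over control. Among all genes, 13.4% were called higher and 11.2% lower for the LPS group over control. For the LPS+MIC-1 group over control these shares were 13.8% and 11.5%. When the closest pairs were averaged, the synthesis list and the regulators each had 0 calls in these comparisons. The LPS call of Cebpb was lost without control library 2 or 3 or LPS library 1 or 3 (Log2FC of 1.04 or more), and Cebpb was called with LPS+MIC-1 without control library 1 (1.11) or LPS+MIC-1 library 2 (1.22). Agpat9 lost its LPS+MIC-1 call without LPS+MIC-1 library 1 or 3 (1.81 in both). Creb3l3, a liver factor known to act on Cidec, measured 78.5, 87.5 and 89.2 FPKM in controls, 166, 125 and 172 FPKM with LPS, and 129, 152 and 129 FPKM with LPS+MIC-1. Its groups did not overlap between control and injected livers, but its Log2FC of 0.84 ± 0.18 (SE) was under the fold limit. Pparg, another known regulator of Cidec, had a Log2FC of -0.09 and was listed at 0 in 4 of 9 libraries, and Ppara, the fasting-response receptor of liver, had a Log2FC of 0.65, under the fold limit.

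**Figure D3:**
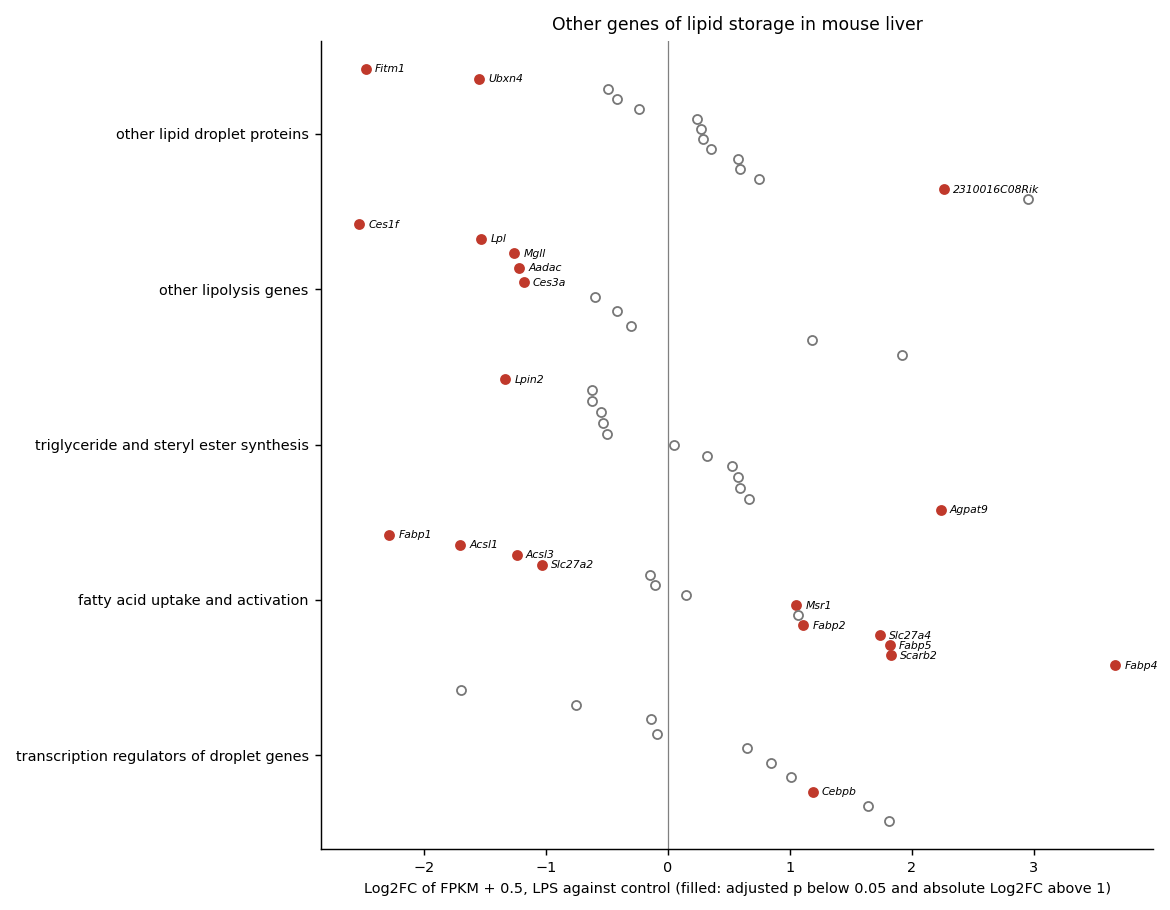
Log2FC of LPS over control in liver for the 61 fitted genes of 5 droplet metabolism lists, 1 point per gene; filled points were called and open points were not. The lipolysis list holds 5 called genes, all below 0, and uptake and activation holds 6 called above and 4 below, from Fabp4 at 3.67 to Fabp1 at -2.28.

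Genes with the liver profile most like that of Cidec were ranked by Pearson's r of log2(FPKM + 0.5) over the 9 liver libraries, which share their treatment groups and the library differences described above. The highest values were Cd63 (0.994), Srgn (0.993), Sult1e1 (0.987), Ccl2 (0.987) and Cerkl (0.985). Cd63, a tetraspanin of late endosomes, measured 7.56, 8.47 and 11.7 FPKM in controls, 78.7, 56.1 and 94.97 FPKM with LPS, and 26.3, 88.2 and 26.7 FPKM with LPS+MIC-1, with library 2 the low one of LPS and the high one of LPS+MIC-1. Among the members r with Cidec was 0.952 for Plin2 (rank 97), 0.876 for Plin4 (rank 531), 0.819 for G0s2 (rank 990) and 0.796 for Cd36 (rank 1201). It was 0.795 for Plin5 (rank 1206), 0.791 for Pnpla2 (rank 1244), -0.732 for Pnpla3 (rank 8783) and -0.929 for Cideb (rank 10010).

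In RAW264.7 macrophages fewer members were measured above 1 FPKM. Cidec and G0s2 were listed at 0 in all 9 libraries, Cidea in 8 and Plin4 in 6, which for the reason given above is not read as absence of the transcript. Cebpa was listed at 0 in all 9 of these libraries too. Cideb (0.0704 to 0.265 FPKM), Pnpla3 (0.0775 to 0.241 FPKM) and Plin5 (0 to 0.162 FPKM) were barely measured. Plin2, Cd36 and Pnpla2 were above 1 FPKM, so 3 of 10 members entered the fit of 9905 genes, in which a call needed an adjusted P-value below 0.01 and a Log2FC beyond 1 in either direction. The liver and macrophage tables were normalized separately and were not compared by a test.

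Plin2 measured 195, 318 and 184 FPKM in control macrophages (233 ± 74.5), 1127, 316 and 1187 FPKM with LPS (876 ± 486), and 596, 402 and 603.5 FPKM with LPS+MIC-1 (534 ± 114). LPS library 2 sat among the controls, and every LPS+MIC-1 library was above every control. For LPS over control 0 of 3 members were called by limma, where 0.0% of all genes were called. At an unadjusted P-value below 0.05 with the same fold limit, 1 member (Plin2) and 1901 genes (19.2%) passed. The Log2FC of Plin2 was 1.73 ± 0.50 (SE), with a 95% interval of 0.58 to 2.88 and an adjusted P-value of 0.0777. Without LPS library 2 it was 2.36 ± 0.26 (adjusted P-value 9.3e-05 by limma), and 2 of 3 members and 34.2% of 9913 genes were called. That library was singled out because its values lay near the controls. Leaving it out therefore widens the difference of LPS from control and narrows the spread. The P-values of all macrophage fits without it are given as a description and not read as support.

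Cd36 measured 83.8, 59.3 and 82.5 FPKM in controls (75.2 ± 13.8), 208, 59.5 and 219 FPKM with LPS (162 ± 89.1), and 240.1, 168 and 235 FPKM with LPS+MIC-1 (214.5 ± 40.0). Again LPS library 2 lay among the controls, and all LPS+MIC-1 libraries lay above them. The Log2FC of LPS over control was 0.90 ± 0.47 (SE; adjusted P-value 0.146 by limma), and 1.52 ± 0.20 (0.000206) without LPS library 2, where Cd36 was called with Plin2. Pnpla2 measured 26.25, 31.6 and 24.8 FPKM in controls, 41.3, 34.6 and 41.4 FPKM with LPS, and 31.15, 26.9 and 32.3 FPKM with LPS+MIC-1. Its LPS libraries lay above the controls, with a Log2FC of 0.50 ± 0.14 (SE) that was under the fold limit (adjusted P-value 0.0777 by limma).

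**Figure D4:**
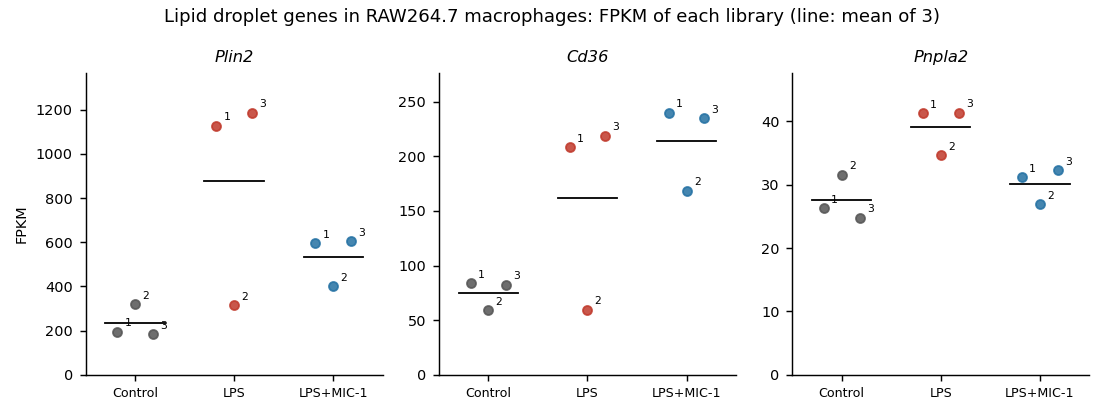
FPKM of Plin2, Cd36 and Pnpla2 in the 9 macrophage libraries, each axis from 0; points are libraries and lines are means of 3. Library 2 of LPS sits with the controls for Plin2 (316 FPKM) and Cd36 (59.5 FPKM), while the other LPS libraries lie at 1127 and 1187 FPKM and at 208 and 219 FPKM.

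For LPS+MIC-1 over LPS in macrophages, 0 of 3 members were called by limma, where 3.87% of all genes were called, and 0 passed at an unadjusted P-value with the fold limit, where 11.4% of genes did. Plin2 had a Log2FC of -0.52 ± 0.50 (SE; interval -1.66 to 0.63), Cd36 of 0.60 ± 0.47 (SE; interval -0.47 to 1.67) and Pnpla2 of -0.37 ± 0.14 (SE; interval -0.69 to -0.05). Without LPS library 2, Plin2 was called lower at -1.14 ± 0.26 (SE; adjusted P-value 0.00569 by limma), where 23.4% of genes were called. Cd36 then had a Log2FC of -0.01 (adjusted P-value 0.964 by limma).

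LPS+MIC-1 over control, in which LPS library 2 plays no part except for the estimate of the spread, gave a Log2FC of 1.51 ± 0.47 (SE) for Cd36, 1.22 ± 0.50 (SE) for Plin2 and 0.13 ± 0.14 (SE) for Pnpla2. Adjusted P-values by limma were 0.0485, 0.111 and 0.519, so 0 of 3 members were called, where 5.59% of all genes were called, and 2 of 3 passed at an unadjusted P-value with the fold limit (14.9% of genes). Without LPS library 2 the folds of Cd36 and Plin2 were the same and both were called, with adjusted P-values of 0.000219 and 0.00279, where 15.8% of genes were called. In a ratio of means, Cd36 with LPS+MIC-1 was 2.85 times the control.

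**Figure D5:**
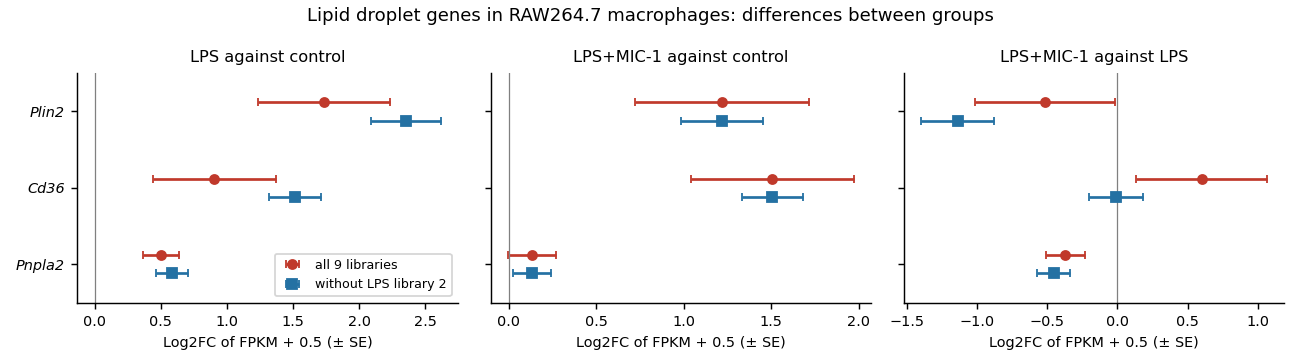
Log2FC ± SE of Plin2, Cd36 and Pnpla2 in 3 macrophage comparisons; red points use all 9 libraries and blue points leave out library 2 of LPS. For LPS over control Plin2 moves from 1.73 to 2.36 and Cd36 from 0.90 to 1.52, and for LPS+MIC-1 over LPS Plin2 moves from -0.52 to -1.14.

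The FPKM sums of macrophage LPS libraries 1 and 3 were 1.138e+06 and 1.133e+06, against 5.98e+05 in LPS library 2. Rescaling to the same sum moved the median of all genes from -0.03 to -0.65 for LPS over control, from -0.01 to 0.44 for LPS+MIC-1 over LPS and from -0.04 to -0.21 for LPS+MIC-1 over control. Under it the Log2FC of Plin2 was 1.05, -0.02 and 1.03 in these comparisons and that of Cd36 was 0.22, 1.10 and 1.32, while the sign of Pnpla2 turned in all of them (to -0.17, 0.12 and -0.05). The split of all genes called for LPS+MIC-1 over LPS moved from 204 higher and 179 lower to 295 and 48, and that for LPS+MIC-1 over control from 324 and 230 to 294 and 83. The part of the FPKM sum in the member values was not tested.

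Of the 45 listed droplet metabolism genes in the macrophage fit, 0 were called for LPS over control by limma (6 at an unadjusted P-value), 4 were higher and 1 was lower when LPS+MIC-1 was compared with LPS, and 6 were higher and 1 was lower against control. These stand beside 0.0%, 3.87% and 5.59% of all genes called. Without LPS library 2 the counts were 9 higher and 3 lower, 6 and 5, and 9 and 1, beside 34.2%, 23.4% and 15.8% of all genes. The 2310016C08Rik (Hilpda) gene was again among them, at 13.4, 27.8 and 14.2 FPKM in controls, 160, 28.8 and 156 FPKM with LPS, and 284, 158 and 264 FPKM with LPS+MIC-1. Its Log2FC of LPS+MIC-1 over control was 3.67 ± 0.65 (SE; adjusted P-value 0.00685 by limma), a call that was lost when any control or LPS+MIC-1 library was left out (Log2FC of 3.48 or more). Lpl, the lipoprotein lipase, fell, from 540, 522 and 574 FPKM in controls and 489, 501 and 507 FPKM with LPS to 133, 86.0 and 133 FPKM with LPS+MIC-1.

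Lpl had a Log2FC of -2.11 ± 0.18 (SE; adjusted P-value 0.000642 by limma) for LPS+MIC-1 over LPS, in which all libraries of both groups stood apart, library 2 included. Soat2 (2.10 ± 0.15; 0.000486), which makes cholesteryl esters, Agpat9 (1.91 ± 0.26; 0.00313), Slc27a4 (1.65 ± 0.23; 0.00328) and the acyl-CoA synthetase Acsl4 (1.28 ± 0.14; 0.00125) rose in the same comparison, each value given as Log2FC ± SE and adjusted P-value by limma. Slc27a4 lost its call when any 1 library other than control 2 and LPS 2 was left out (1.46 to 1.70), Agpat9 without LPS library 1 (2.02) or any LPS+MIC-1 library (1.76 to 1.98), and Acsl4 without LPS+MIC-1 library 1 (1.24) or 3 (1.26), while Lpl and Soat2 kept theirs. Over control, the nuclear receptor Ppard, a known activator of Plin2, rose by 2.21 ± 0.37 (SE; adjusted P-value 0.00567 by limma). It measured 6.20, 6.73 and 6.06 FPKM in controls, 18.8, 6.34 and 20.1 FPKM with LPS, and 31.2, 31.3 and 30.8 FPKM with LPS+MIC-1. Plin3, a cytosolic perilipin that moves onto droplets, rose with a Log2FC of 1.02 ± 0.13 (adjusted P-value 0.00192), from 16.3, 19.6 and 16.6 FPKM in controls to 34.2, 38.7 and 34.4 FPKM with LPS+MIC-1. The calls of Ppard (2.18 to 2.25) and Plin3 (0.96 to 1.05) were lost in fits without a control or LPS+MIC-1 library, with any such library for Ppard and any but control 2 for Plin3. Abhd5 passed neither limit over control, at 0.55 (0.0134), and Creb3l3 (1.05) and Lipe (-0.69) were not called for LPS over control, both with an adjusted P-value of 0.0777 by limma, but were called without LPS library 2 (1.37 and -1.01).

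Over the 9 macrophage libraries the genes most like Plin2 by Pearson's r were Pstpip1 (0.998), Dcaf6 (0.997), Ypel3 (0.996), Fblim1 (0.996) and Dagla (0.996). Pnpla2 had 0.865 (rank 1339) and Cd36 0.785 (rank 1958). These libraries share their treatment groups and the position of LPS library 2 among the controls.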

How the data were processed

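Total RNA was sequenced by BGI, and the tables hold 3 libraries per group. The study describes 2 LPS replicates for macrophages, and all 3 LPS columns were kept here. The authors quantified reads with kallisto 0.45.0 on a RefSeq index of mm9 and imported them with tximport, and the deposited tables hold FPKM values. Their DESeq2 1.20.0 comparisons, deposited in 6 files (mean normalized count, log2 fold change, standard error, statistic, P-values), were not used. FPKM tables hold no counts, so depth was estimated only from the steps between low values, of which 87.8% to 93.1% per library lay within 0.25 reads of a whole number.

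Members and gene lists were chosen with earlier results of these data known. FPKM values were transformed as log2(FPKM + 0.5), genes with a mean above 1 FPKM over the 9 libraries of a table were kept, and limma 3.58.1 (R 4.3.3) was fitted per table over all 9 libraries with Benjamini-Hochberg adjustment over all genes. Such fold changes understate changes of low genes. Closest pairs of libraries within a group differed by 1.66 to 6.25 times the sampling variance and were counted separately. Beyond the members, the text names the called gene with the largest absolute Log2FC per direction of each list and comparison (up to 4 per list and table), Creb3l3, Ppara, Pparg, Plin1, Plin3, Abhd5 and Lipe in any case, and the 5 genes most like Cidec in liver and Plin2 in macrophages. In liver, Slc27a4, Acsl1, Acsl3, Mgll, Lpl, Aadac, Ces3a and Ubxn4 were added after their values were seen. Alternatives changed the pseudocount, filter, scaling, libraries and thresholds. Python 3.11.15 was used for tables and promoters. The fit was also run on simulated data with independent noise. Those data held no library that stood apart and no close pairs, so nothing is read from that run for the calls given here.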

Additional observations from a re-analysis of the deposited data

Results flagged for a closer look

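Lpin2, which encodes the phosphatidate phosphatase lipin 2 of the triglyceride synthesis list, had values of opposite sign in liver and macrophages for LPS+MIC-1 over control. In liver it measured 28.5, 44.7 and 51.4 FPKM in controls and 18.1, 15.1 and 17.6 FPKM with LPS+MIC-1, a Log2FC of -1.23. In macrophages it measured 1.38, 2.82 and 2.32 FPKM in controls and 4.14, 4.22 and 4.74 FPKM with LPS+MIC-1, a Log2FC of 0.90, which is under the fold limit of 1 and was not called. The groups did not overlap in either table. The difference between liver and macrophages was not tested.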

How the results depend on the processing

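No paired analysis was possible because the columns of the tables carry the treatment and no replicate number. Of the Log2FC values named in the text, 2116 recomputed values stayed on their side of the threshold, 99 fell below it and 53 passed it. Among the 2116, 63 values took the other sign without being called, for 26 gene and comparison pairs under 1 to 7 alternatives each, and 0 called values turned sign. Leaving out 1 library at a time gave 5 to 6 members and 1239 to 3522 genes called in liver for LPS over control, 0 members and 0 to 36 genes for LPS+MIC-1 over LPS, and 5 to 6 members and 1767 to 3085 genes for LPS+MIC-1 over control. In macrophages it gave 0 to 2 members and 0 to 3389 genes, 0 to 1 members and 104 to 2319 genes, and 0 to 2 members and 142 to 1565 genes. The highest macrophage counts were those without LPS library 2.

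When the closest pair of libraries of each group was averaged, a choice made after the data were seen, 0 members were called in either table, with 151 and 161 liver genes in the comparisons with control (2493 and 2560 with all libraries), 0 liver genes for LPS+MIC-1 over LPS and 0 macrophage genes for LPS+MIC-1 over LPS or over control. That fit has fewer values per group. With library 2 of liver LPS and of LPS+MIC-1 both left out, 1 member and 305 genes were called for LPS+MIC-1 over LPS. In that comparison a pseudocount of 1 gave 1 gene, no filter gave 2, a mean above 0.1 FPKM gave 2, limma's robust setting without a trend gave 1, and an unadjusted P-value gave 100. In macrophages an unadjusted P-value gave 1 member and 1901 genes for LPS over control, 1131 genes for LPS+MIC-1 over LPS, and 2 members and 1480 genes for LPS+MIC-1 over control. Without a minimum fold the genes called were 617 for LPS+MIC-1 over LPS and 866 for LPS+MIC-1 over control. Fitting only the groups compared gave 5 genes for LPS+MIC-1 over LPS, and 2 members and 1541 genes for LPS+MIC-1 over control. The cause of these changes was not tested unless stated.

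The number of libraries and the 0 or near-0 control values of Cidec limit precision. Whether values listed at 0 are failed estimates was not tested.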
